A study of Mus musculus with 24 samples.

Results

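Cultured myoblasts of dystrophic *mdx* mice were compared with muscle stem cells (MuSCs) activated by injury in the same strain, in 6 of the 24 libraries of the series. The 3 libraries labelled as *mdx* primary myoblasts were set against the 3 labelled as *mdx* activated MuSCs (AMuSCs), and the members were taken from the library titles alone. Both groups came from hindlimb muscle of *mdx* mice that carry a nuclear GFP reporter of *Pax7* (mdx.Pax7-nGFP). The *mdx* strain has a nonsense mutation of *Dmd*, the gene of dystrophin, so neither of these groups makes the full-length protein and the *Dmd* RNA level does not check the genotype. Myoblasts were enriched on magnetic columns for α7-integrin and against CD31, CD11b, CD45 and SCA1, and were then grown on collagen in Ham's F10 medium with 20% foetal bovine serum and basic FGF. The labels name no injury for them. AMuSCs were sorted by flow cytometry as GFP+ and α7-integrin+ cells without the same lineage markers, 3 days after intramuscular injection of 10 µM cardiotoxin, a snake venom toxin that destroys myofibres. The ages and sexes of the mice are not in the labels. The libraries of each group are biological replicates according to the design text, and nothing says whether culture and sorted replicates with the same number came from the same animals. The RNA kit was not the same for sorted and for cultured cells. The origin of the cells, their injury, their isolation and the kit therefore cannot be told apart in any result below. The 3 WT myoblast and 3 WT AMuSC libraries, from mice without the *Dmd* mutation that carry the same reporter, served to show where the *mdx* contrast differed.

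MuSCs lie between the myofibre and its basement membrane and are held in quiescence by signals such as Notch and by CDK inhibitors. Injury activates them within regenerating muscle, among macrophages, fibroblastic cells and newly deposited matrix. Myoblasts are their dividing progeny, which in culture are kept in the cell cycle by FGF and serum and meet plastic and collagen in place of the niche. Levels are given as CPM, a gene's estimated read count scaled to a common library size. Fold changes are log2 ratios of *mdx* myoblasts over *mdx* AMuSCs with their standard errors. A gene was called when its adjusted p in edgeR's quasi-likelihood test was under 0.05.

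Each group held the muscle markers of its label, but 1 library of each group stood apart. *Pax7*, *Itga7* (α7-integrin), *Cdh15* (M-cadherin), *Myf5*, *Myod1*, *Vcam1* and *Des* were detected in all 6 libraries. On an axis drawn through the WT libraries, where 0 is the mean WT AMuSC and 1 the mean WT myoblast, *mdx* myoblasts 1, 2 and 3 lay at 0.840, 0.290 and 0.774, against -0.340, -0.206 and -0.266 for the *mdx* AMuSCs. Myoblast 2 thus lay closer to the AMuSCs than its 2 fellow libraries did. In 38 genes that were under 0.5 CPM in the other *mdx* myoblasts and over 10 CPM in every *mdx* AMuSC library, it reached a median of 10.1% of the mean AMuSC level. It was the highest of the 3 myoblast libraries in 58.8% of the genes called lower, against 32.7% of all genes tested. Among the AMuSCs, replicate 1 carried the most leukocyte RNA. The summed level of 23 macrophage markers was 201, 557 and 265 CPM in the myoblasts, against 7821, 668 and 847 CPM in AMuSCs 1 to 3, and that of 16 general leukocyte markers was 85.8, 224 and 128 CPM, against 1596, 162 and 223 CPM. The defining leukocyte gene *Ptprc* was at 0, 6.49 and 0.157 CPM, against 181, 4.71 and 17.7 CPM. *Cd3e*, which defines T cells, did not pass the filter on low counts in these 6 libraries. Endothelial and erythroid markers stayed low, with *Cdh5* at 0.483, 4.88 and 0.419 CPM, against 0.962, 4.86 and 10.8 CPM. In these bulk samples, fewer cells of a type and less RNA per cell cannot be told apart. Results are therefore also given without myoblast 2, and named genes called here also passed without it unless stated.

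**Figure D1:**
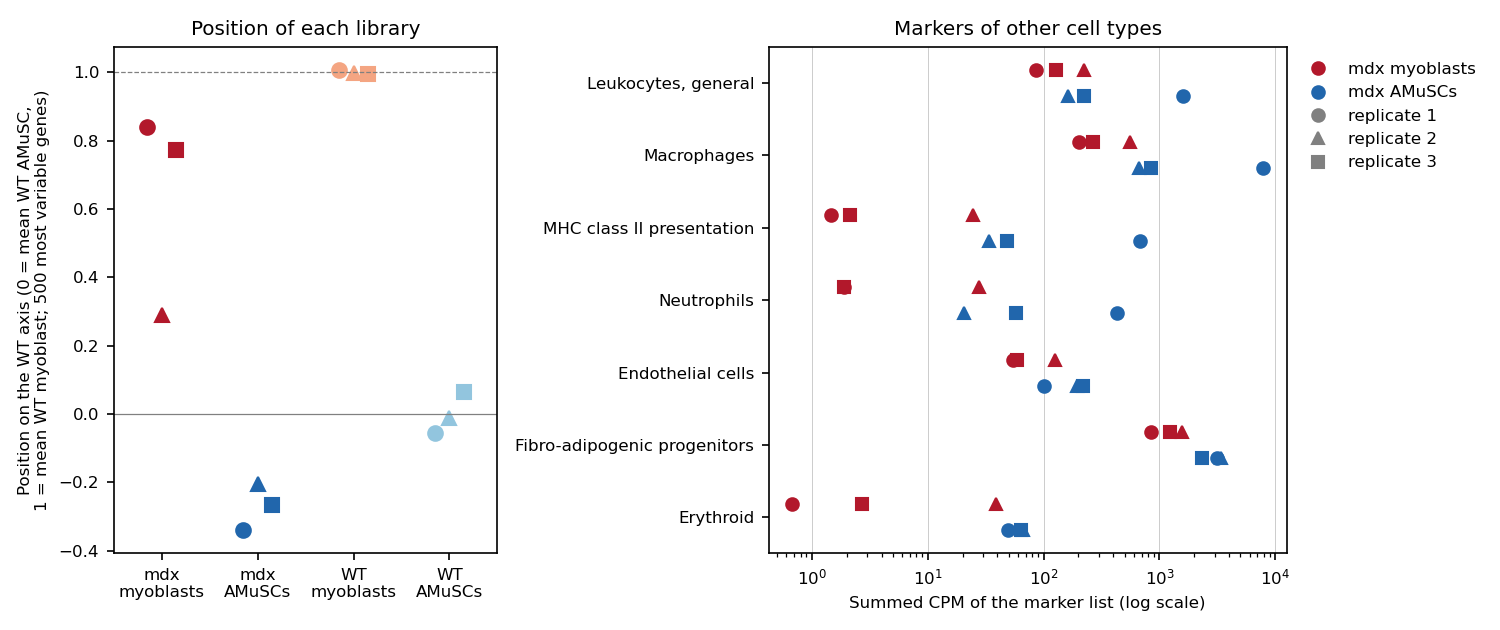
Left, position of each of 12 libraries on the axis between the mean WT AMuSC (0) and the mean WT myoblast (1) over the 500 most variable genes. Right, summed CPM of marker lists of other cell types on a log scale in the 3 *mdx* myoblast and 3 *mdx* AMuSC libraries. Myoblast 2 sits at 0.290, away from the other *mdx* myoblasts, and AMuSC 1 has the highest leukocyte, macrophage, MHC class II and neutrophil sums.

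Of 18589 genes tested, 3508 (18.9%) were called, 2030 higher (10.9%) and 1478 lower (7.95%) in *mdx* myoblasts. These shares are the background for the counts of list members in the *mdx* contrast below. The libraries of the groups did not overlap for 22.1% of genes on the higher side and 21.1% on the lower side. The median log2 fold change over all genes was -0.08, and 2208 of the called genes changed at least 2-fold. Without myoblast 2, 3040 of 19847 genes were called (15.3%), 1499 higher (7.55%) and 1541 lower (7.76%). Of the 3508 genes, 2461 (70.2%) were called in the same direction in both fits and none turned round. The count also depended on other single libraries, with 1916 genes called without myoblast 1, 1751 without myoblast 3 and 1854 without AMuSC 3.

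The largest increases were in genes that AMuSCs hardly expressed, and they included a cluster of serine proteases better known from leukocytes. *Mcpt8*, a protease gene, was at 208, 216 and 273 CPM in *mdx* myoblasts, against 1.30, 0.243 and 0.146 CPM in *mdx* AMuSCs (log2 fold change 8.72 ± 0.90, adjusted p = 0.00348). The granzyme gene *Gzmd*, which lies in the same gene cluster, was at 165, 184 and 230 CPM, against 1.10, 0.0561 and 0.0651 CPM (8.93 ± 1.16, adjusted p = 0.00733). *Gzme* was at 272, 302 and 363 CPM, against 1.94, 0.149 and 0 CPM (8.84 ± 1.49, adjusted p = 0.0156), a call lost without myoblast 1 (adjusted p = 0.0519) and without myoblast 3 (adjusted p = 0.0511). The 3 genes lie on chromosome 14 of GRCm38 (*Mcpt8* chr14:56082166-56085273, *Gzme* chr14:56117626-56120625, *Gzmd* chr14:56129556-56132608, all on the minus strand). All 3 myoblast libraries were high, and the groups did not overlap, as the rule that chose these genes required. Fold changes against levels this close to 0 depend on the prior count and on the AMuSC library with the most reads of the gene. Without AMuSC 1 they were 10.22 for *Mcpt8*, 11.58 for *Gzmd* and 12.07 for *Gzme*. *Gzmd* and *Gzme* are near copies, and reads shared between them may have been divided in either direction. The T cell receptor constant gene *Trbc2* behaved alike, at 99.9, 86.9 and 102 CPM in myoblasts, against 0.569, 0 and 0 CPM in AMuSCs (9.04 ± 1.34, adjusted p = 0.0108), with *Cd3e* under the filter. Its AMuSC reads came from replicate 1 alone.

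Transcription factors and secreted factors made up a second part of these increases. *Dlx2* was at 63.0, 63.9 and 69.5 CPM in myoblasts, against 0.432, 0.0561 and 0.0163 CPM in AMuSCs (8.64 ± 0.96, adjusted p = 0.00400). Its neighbour *Dlx1*, which like *Dlx2* encodes a homeobox factor of craniofacial and neural development, was at 41.9, 23.4 and 52.6 CPM, against 0.177, 0.0187 and 0.211 CPM (8.14 ± 0.77, adjusted p = 0.00207). Both genes were near 0 in every AMuSC library. *Grem1*, a secreted BMP antagonist, was at 70.5, 73.6 and 110 CPM, against 0.707, 0.0561 and 0.0651 CPM (8.29 ± 1.02, adjusted p = 0.00596). *Rxfp1*, the relaxin receptor gene, was at 15.3, 22 and 15.4 CPM, against 0.118, 0.0374 and 0 CPM (8.39 ± 0.94, adjusted p = 0.00279). Outside the 15 largest increases, *Myo1d*, an unconventional myosin gene picked with its values known, had the smallest p of all genes. It was at 129, 130 and 128 CPM, against 5.61, 5.14 and 4.59 CPM (4.66 ± 0.14, adjusted p = 8.97e-05). Without AMuSC 1 the log2 fold change was 10.78 for *Dlx2* and 10.39 for *Grem1*. *Rxfp1* then had AMuSC reads in replicate 2 alone, at 0.0374 CPM, and its fold change in that fit is not given. The 15 largest increases were chosen among genes also called without myoblast 2, and 11 to 15 of them were called without any 1 of the other libraries. AMuSC 1 was the highest AMuSC library for 14 of the 15.

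The largest decreases included a stem cell receptor, a kinesin and matrix genes. *Lgr5*, a Wnt pathway receptor of stem cells, was at 0.465, 2.14 and 0.629 CPM in *mdx* myoblasts, against 30.6, 29.1 and 30.4 CPM in *mdx* AMuSCs (-4.79 ± 0.64, adjusted p = 0.00531). *Kif26b*, a kinesin family gene, was at 4.08, 5.82 and 1.76 CPM, against 129, 134 and 110 CPM (-4.99 ± 0.46, adjusted p = 0.00181). *Enpp1*, which makes pyrophosphate, and *Pkp1*, a desmosome protein gene, fell by 4.77 and 4.75 on the log2 scale. These 4 genes were low in all 3 myoblast libraries and kept their call under every alternative. Without myoblast 2 the log2 fold change was -5.77 for *Lgr5* and -5.62 for *Enpp1*. *Hpgd*, the prostaglandin-degrading enzyme, was at 0.0537, 0.788 and 0.0262 CPM, against 17.2, 27.1 and 15.4 CPM (-6.06 ± 1.27, adjusted p = 0.0265), and its log2 fold change was -8.80 without myoblast 2. Leaving out AMuSC 1 or 3 or myoblast 1 or 3 ended this call, at adjusted p = 0.0525, 0.0703, 0.0711 and 0.0590. *Cilp*, a matrix protein gene, was at 0.251, 4.09 and 0.419 CPM, against 56.6, 84.9 and 59.8 CPM (-5.39 ± 1.18, adjusted p = 0.0329), and its log2 fold change was -7.66 without myoblast 2. Leaving out any 1 of the other 5 libraries ended this call, with adjusted p from 0.0531 to 0.0907. Myoblast 2 was the highest myoblast library in all 15 of the largest decreases. They were chosen among genes also called without it, and 5 of them were called without AMuSC 1, 5 without AMuSC 3, 8 without myoblast 1, 6 without myoblast 3 and 13 without AMuSC 2.

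**Figure D2:**
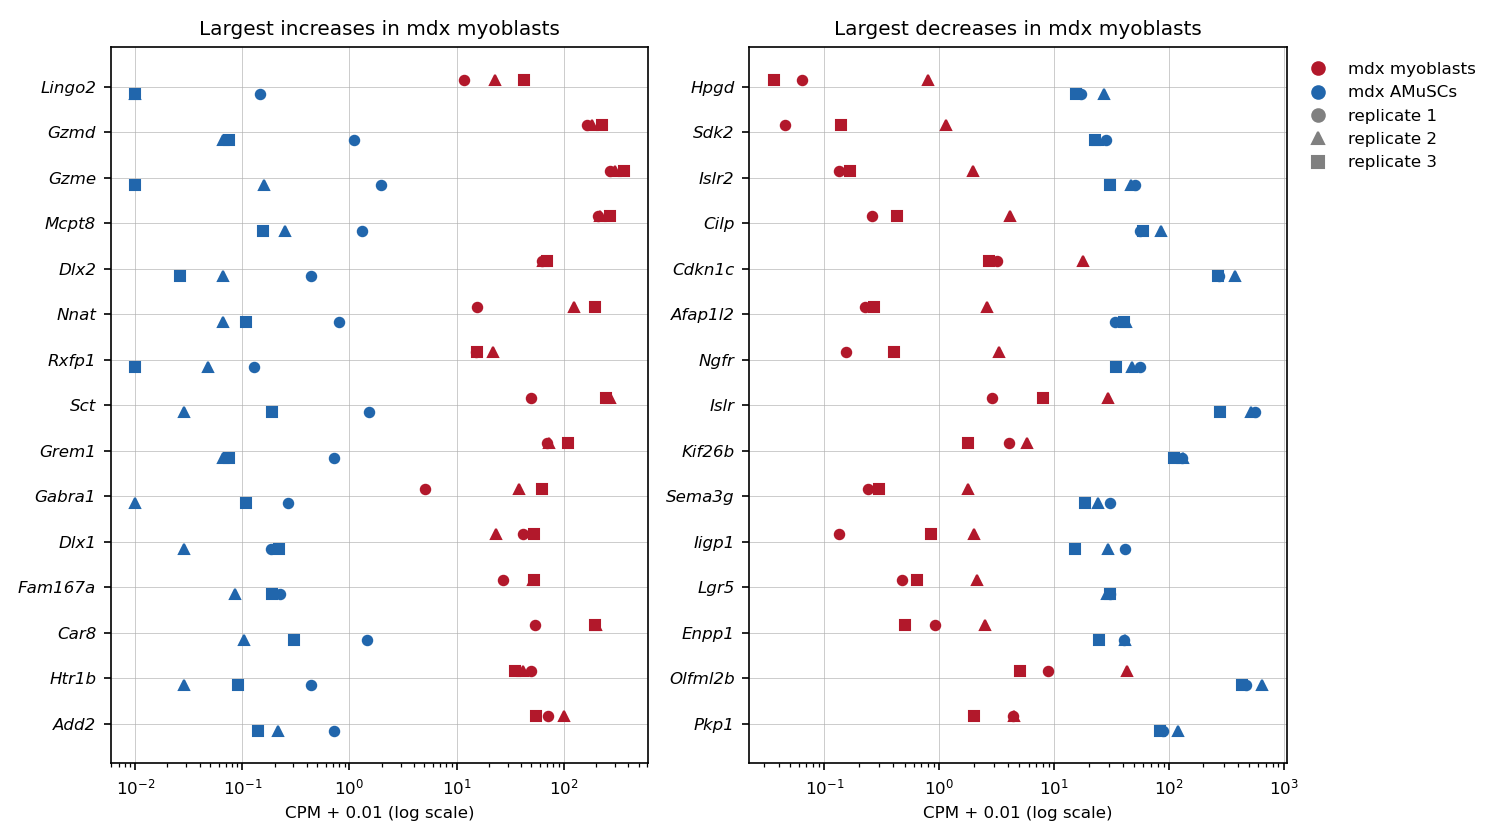
CPM in each library, on a log scale after adding 0.01, for the 15 largest increases (left) and 15 largest decreases (right) in *mdx* myoblasts over *mdx* AMuSCs, with the replicate given by the symbol. The groups do not overlap for any gene, by the rule that chose them. In the right panel myoblast 2 (red triangle) is the highest myoblast library in all 15 genes.

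Several genes of MuSC identity were lower in culture, while the determination factor *Myod1* was higher. *Pax7* was at 162, 246 and 164 CPM in *mdx* myoblasts, against 883, 900 and 808 CPM in *mdx* AMuSCs (-2.18 ± 0.21, adjusted p = 0.00150). AMuSCs were sorted on the *Pax7* reporter, whereas myoblasts were enriched on columns for α7-integrin. The part of this sort in the *Pax7* level was not tested. *Fgfr4*, an FGF receptor of muscle progenitors, was at 91.8, 153 and 116 CPM, against 525, 524 and 479 CPM (-2.08 ± 0.21, adjusted p = 0.00172). The groups were well apart for both genes, with myoblast 2 the highest myoblast library. *Cdh15* fell by 2.00, *Itga7* by 1.37 and *Nfix*, a factor of the foetal programme in myoblasts, by 1.72 on the log2 scale. Of 35 tested members of the quiescence and stemness list, 11 were lower and 4 higher, with a median of -1.49. Without myoblast 2, 21 were lower and 4 higher, with a median of -2.27. The Notch target *Heyl* shows the change, at 1.23, 76.7 and 3.17 CPM in myoblasts, against 603, 701 and 467 CPM in AMuSCs. It was not called with all libraries (-4.45 ± 1.66, adjusted p = 0.124) and was called without myoblast 2 (-8.07, adjusted p = 0.000580). *Calcr*, the calcitonin receptor gene that marks quiescent MuSCs, was at 0.107, 21.6 and 1.13 CPM, against 28.5, 14.9 and 17.7 CPM, so its groups overlapped only through myoblast 2.

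*Myod1* was at 1024, 1273 and 1320 CPM in *mdx* myoblasts, against 138, 289 and 280 CPM in *mdx* AMuSCs (2.36 ± 0.31, adjusted p = 0.00388). *Jam2*, an adhesion molecule of myoblast fusion in zebrafish, was at 185, 142 and 166 CPM, against 12.9, 15.1 and 12.4 CPM (3.61 ± 0.16, adjusted p = 0.000446). Both genes were high in every myoblast library. *Cdon*, a co-receptor that promotes myogenesis, rose by 1.10. *Myog*, which drives terminal differentiation, was at 33.1, 66.1 and 42.1 CPM, against 76.2, 274 and 194 CPM, and just missed the threshold (-1.95 ± 0.52, adjusted p = 0.0504). The 30 tested genes of myogenic regulation and fusion divided, with 5 higher and 3 lower and a median of 0.11, and with 3 higher and 1 lower without AMuSC 3. Of 34 sarcomere genes 5 were higher and 1 lower, a share near the 18.9% called of all genes. *Tnnc1*, slow troponin C, was at 20.5, 55.9 and 19.1 CPM, against 1.81, 2.48 and 2.52 CPM (3.81 ± 0.49, adjusted p = 0.00429). *Actn3*, the fast-fibre α-actinin gene, was at 42.3, 73.8 and 35 CPM, against 267, 407 and 289 CPM (-2.67 ± 0.33, adjusted p = 0.00335). Myoblast 2 was again the highest myoblast library for both of these genes, and the median of the list was 1.16 with it and 0.06 without it. The log2 fold change of *Tnnc1* was 3.14 without it. Without AMuSC 3, 1 sarcomere gene was called higher, without AMuSC 2 3 were lower, and without myoblast 2 8 were higher and 4 lower.

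Few genes of DNA replication were called, and the share of mitosis genes called was near the 18.9% called of all genes. Most of the tested G1 cyclins, CDK inhibitors and p53 targets were called. None of the 40 mitosis and 45 DNA replication genes moved by 2-fold in a called direction except *Orc1* (1.19 ± 0.26, adjusted p = 0.0222), an origin recognition gene whose call was lost without AMuSC 1 (adjusted p = 0.0550), myoblast 1 (adjusted p = 0.0777) or myoblast 3 (adjusted p = 0.0625). Of the mitosis genes 5 were called higher and 1 lower, with a median of 0.27, and of the replication genes 2 were called higher and none lower, with a median of 0.14. Counts in these lists moved with single libraries, since without AMuSC 2 8 mitosis and 10 replication genes were called higher, and without any 1 of the other libraries 0 to 3 mitosis genes and 1 replication gene were. *Cdk1*, the mitotic kinase, was at 145, 129 and 140 CPM in *mdx* myoblasts, against 73.7, 122 and 92.6 CPM in *mdx* AMuSCs (0.53 ± 0.19, adjusted p = 0.0990). By contrast, 17 of 34 G1 and p53 genes were higher and 6 lower, with a median of 0.67, and 14 and 5 without myoblast 2. The lower count was 2 without myoblast 1 and 2 without myoblast 3.

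*Ccnd2*, a D-type cyclin, was at 353, 547 and 578 CPM in *mdx* myoblasts, against 11.6, 8.30 and 4.96 CPM in *mdx* AMuSCs (5.90 ± 0.41, adjusted p = 0.000687). *Ccnd1*, the D-type cyclin induced by mitogens, was at 1305, 1166 and 1015 CPM, against 182, 327 and 305 CPM (2.10 ± 0.25, adjusted p = 0.00304). Every myoblast library was above every AMuSC library for both. The p53 targets *Mdm2*, *Ccng1* and *Sesn2* were higher too. *Mdm2*, the ubiquitin ligase of p53, was at 436, 290 and 307 CPM, against 87.7, 73.3 and 94.5 CPM (2.02 ± 0.20, adjusted p = 0.00178). *Ccng1* rose by 2.43 and *Sesn2*, a stress sensor of amino acid signalling, by 1.89. Of the CDK inhibitors, *Cdkn1c* (p57) was among the largest decreases of all genes, at 3.17, 17.9 and 2.70 CPM, against 272, 377 and 268 CPM (-5.26 ± 0.92, adjusted p = 0.0173). Its log2 fold change was -6.68 without myoblast 2 (adjusted p = 0.000205). The call was lost by a little without AMuSC 1 (adjusted p = 0.0504), AMuSC 3 (adjusted p = 0.0509) or myoblast 1 (adjusted p = 0.0563). *Cdkn1b* (p27) was at 48.6, 56.5 and 41.5 CPM, against 102, 77.6 and 85.5 CPM (-0.85 ± 0.17, adjusted p = 0.0147), a call lost without myoblast 1 (adjusted p = 0.0559) and without myoblast 3 (adjusted p = 0.0799).

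**Figure D3:**
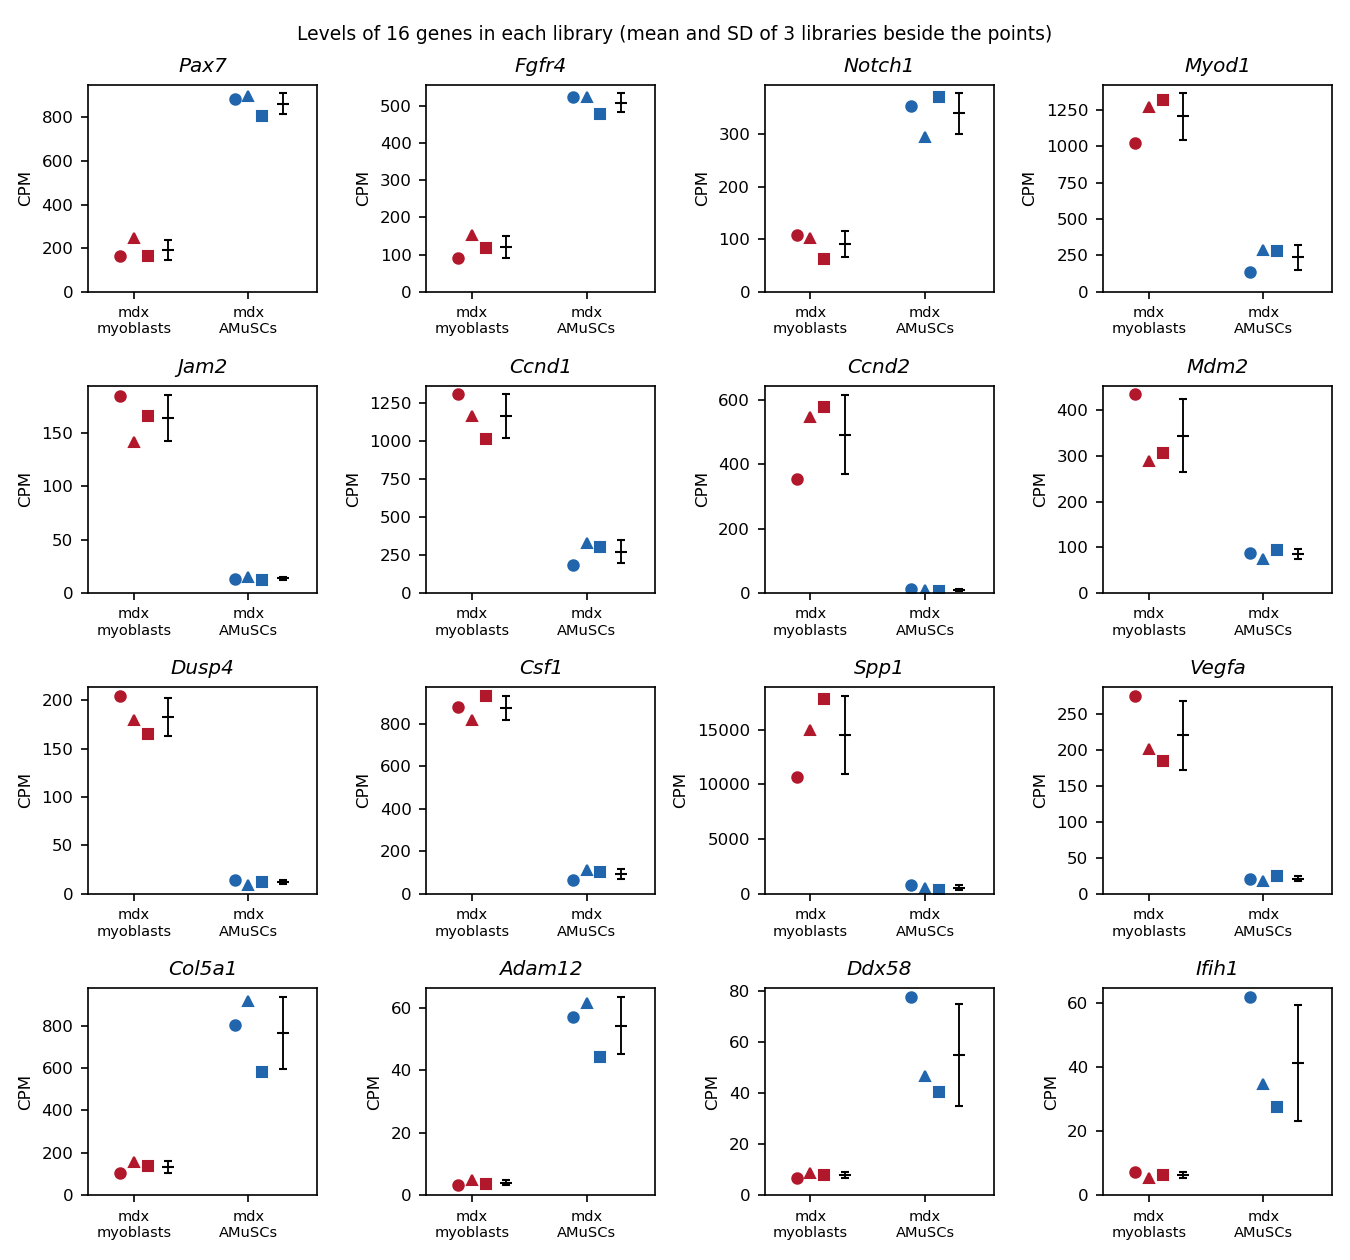
CPM of 16 genes in each of the 3 *mdx* myoblast (red, left) and 3 *mdx* AMuSC (blue, right) libraries on linear axes from 0, with the mean and SD of 3 libraries in black. *Pax7*, *Fgfr4*, *Notch1*, *Col5a1*, *Adam12*, *Ddx58* and *Ifih1* are lower in all 3 myoblast libraries, and the other 9 genes are higher in all 3.

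Genes of the FGF and ERK signalling list had the highest median of the 47 lists with all libraries. Members of all lists were chosen with earlier results of these data known, so this ranking is a description. The sarcomere list was higher without AMuSC 2 (1.53, against 1.46 for FGF and ERK) and without myoblast 1 (1.44, against 1.41). The culture medium contains basic FGF, and ERK signalling induces its own inhibitors, among them Sprouty proteins and dual-specificity phosphatases. Of 30 tested genes, 17 were higher and 3 lower in *mdx* myoblasts, with a median of 1.46, and 15 were higher and 2 lower without myoblast 2. *Dusp4*, an ERK phosphatase, was at 204, 179 and 165 CPM, against 14.1, 9.62 and 12.2 CPM in *mdx* AMuSCs (3.93 ± 0.19, adjusted p = 0.000446). *Phlda1* was at 143, 130 and 135 CPM, against 28.8, 26.3 and 27.1 CPM (2.31 ± 0.11, adjusted p = 0.000446). The replicates of these genes lay close together in both groups. *Spry2* rose by 1.53, and the ETS factors *Etv4* and *Etv5* by 2.36 and 1.21. The growth factor gene *Fgf7* was at 30.8, 41.4 and 59.3 CPM, against 0.236, 0.168 and 0.569 CPM (7.05 ± 0.57, adjusted p = 0.00117), and 7.74 without AMuSC 3. *Dusp6*, another ERK phosphatase, was higher in every myoblast library but missed the threshold. It was at 273, 157 and 107 CPM, against 95.8, 65.4 and 45.6 CPM (1.38 ± 0.42, adjusted p = 0.0709). *Spry1*, which in MuSCs is tied to quiescence, was at 35.6, 96.3 and 8.23 CPM, against 148, 143 and 136 CPM (-1.61 ± 0.82, adjusted p = 0.226).

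Genes that respond to actin tension through MRTF-SRF and YAP-TEAD were higher in 11 of 29 cases and lower in 1, with a median of 0.61. Of these, 9 were called higher without myoblast 2 and 7 without AMuSC 3, and the lower call was lost without AMuSC 1, AMuSC 3 or myoblast 3. *Ankrd1*, a YAP target, was at 1192, 1016 and 821 CPM in *mdx* myoblasts, against 111, 194 and 206 CPM in *mdx* AMuSCs (2.57 ± 0.28, adjusted p = 0.00220). *Crim1* rose by 3.61 and *Nt5e*, the surface enzyme CD73, by 3.98. In the 250 bases before to 50 bases after the start of the gene, the TEAD motif GGAATG on either strand was found in 5 of the 11 higher members with a promoter sequence and in 11 of the 24 of the whole list, against 14.6% of all 11981 tested genes with one.

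Amino acid stress genes driven by ATF4 formed a group with several members higher. ATF4 is a transcription factor that is translated when amino acids run short or the endoplasmic reticulum is stressed, and it induces amino acid transporters and synthetic enzymes. Of 32 tested genes of serine, one-carbon and ATF4 metabolism, 13 were higher and none lower, with a median of 0.58, and 11 were higher without myoblast 2. Under DESeq2, upper quartile scaling, the 10 CPM filter and protein-coding genes only, 1 member was called lower. *Slc7a11*, the cystine transporter, was at 48.8, 28.9 and 26.8 CPM in *mdx* myoblasts, against 2.51, 0.617 and 1.90 CPM in *mdx* AMuSCs (4.38 ± 0.58, adjusted p = 0.00526). *Chac1*, which degrades glutathione, was at 8.73, 13.6 and 10.1 CPM, against 0.589, 0.635 and 0.228 CPM (4.48 ± 0.49, adjusted p = 0.00218). *Trib3*, a feedback inhibitor of ATF4, was at 6.30, 7.13 and 7.78 CPM, against 0.393, 0.467 and 0.260 CPM (4.24 ± 0.39, adjusted p = 0.00141). The groups of all 3 genes were far apart. *Asns*, asparagine synthetase, rose by 1.47. *Phgdh*, of serine synthesis, and *Shmt2*, of one-carbon metabolism, did not pass, with log2 fold changes of 0.35 (adjusted p = 0.324) and 0.24 (adjusted p = 0.41).
The ATF4 composite site, searched as TGAT directly followed by GCAA on either strand, lay in the promoters of 3 of 11 higher members and of 6 of 27 members in all, against 0.726% of tested genes. On the gene's own strand alone it was found in 1 of 11, against 0.376%. The promoter stretches of 2 of them are shown because they carry this site in the genes with the largest increases, with the site in capitals, 39 bases before the start of *Slc7a11* (chr3:50443643-50443670, minus strand) and 185 bases before that of *Chac1* (chr2:119351039-119351066, plus strand), from RefSeq on GRCm38.p6:
Slc7a11: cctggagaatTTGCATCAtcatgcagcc
Chac1: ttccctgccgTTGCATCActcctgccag

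Single genes of glucose and oxygen sensing changed by large factors. None of the 56 nuclear genes of oxidative phosphorylation was called with all 6 libraries by edgeR, and 2 higher and 5 lower of them had an unadjusted p under 0.05, while DESeq2 called 1 higher and 2 lower. Without AMuSC 2, 7 of them were called higher. *Hk2*, the hexokinase that commits glucose to glycolysis, was at 78.6, 78.8 and 97.3 CPM in *mdx* myoblasts, against 24.0, 16.9 and 19.6 CPM in *mdx* AMuSCs (2.07 ± 0.18, adjusted p = 0.00115). Of 20 hypoxia targets 8 were higher and 3 lower. *Vegfa*, the angiogenic factor, was at 275, 201 and 185 CPM, against 21.1, 17.7 and 24.5 CPM (3.38 ± 0.21, adjusted p = 0.000482). *Egln3*, an oxygen sensor, was at 253, 214 and 226 CPM, against 19.2, 41.9 and 35.2 CPM (2.85 ± 0.29, adjusted p = 0.00192). Both were high in all myoblast libraries. Without myoblast 2, 5 hypoxia targets were higher and 5 lower, without AMuSC 3 5 and 1, and without AMuSC 1, myoblast 1 or myoblast 3 none was lower. *Acaa2*, of fatty acid oxidation, fell by 1.57 and the sterol regulator *Srebf2* by 1.05. *Fbxo32*, an atrophy-linked ubiquitin ligase gene under FoxO control, rose by 2.11.

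Several collagen genes were lower in culture, while osteopontin and some adhesive glycoproteins were higher. Of 25 collagen chains 7 were lower and 2 higher, with a median of -1.58. Without myoblast 2, 15 were lower and 1 higher, with a median of -2.19. The number higher was 0 or 1 without any 1 library. *Col5a1* was at 103, 157 and 138 CPM in *mdx* myoblasts, against 801, 917 and 582.1 CPM in *mdx* AMuSCs (-2.53 ± 0.24, adjusted p = 0.00156). *Col3a1* was at 560, 933 and 687 CPM, against 2309, 2500 and 1701 CPM (-1.58 ± 0.25, adjusted p = 0.00760), and *Col12a1* fell by 2.26. The groups were apart for all 3 genes. *Col1a1* was at 8.14, 43.9 and 1.99 CPM, against 542, 488 and 282 CPM. It was not called with all libraries (-4.60 ± 1.21, adjusted p = 0.0536), and its log2 fold change was -6.40 without myoblast 2 (adjusted p = 0.00899). Markers of fibro-adipogenic progenitors, which also make collagen, summed to 848, 1574 and 1232 CPM in myoblasts, against 3115, 3397 and 2341 CPM in AMuSCs. The called markers went both ways, with 3 of 19 tested higher and 3 lower, and the median was -1.25. The part of these progenitors in the collagen result was not tested. The defining progenitor gene *Pdgfra* was at 2.06, 2.29 and 1.78 CPM, against 2.14, 4.07 and 4.62 CPM.

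*Spp1* (osteopontin), a secreted glycoprotein that binds integrins, was at 10684, 14965 and 17748 CPM in *mdx* myoblasts, against 808, 573 and 362 CPM in *mdx* AMuSCs (4.64 ± 0.39, adjusted p = 0.00105). *Tnc* (tenascin-C) was at 1725, 866 and 1210 CPM, against 279, 442 and 263 CPM (1.95 ± 0.32, adjusted p = 0.00854). Both were high in all 3 cultures. The basement membrane linker *Nid1* rose by 1.59, whereas *Matn2*, *Fbn1* (fibrillin-1) and *Lama2*, the laminin chain of the muscle basement membrane, fell by 2.78, 1.55 and 2.01. In all, 7 of 38 matrix glycoproteins were higher and 10 lower, and 9 and 15 without myoblast 2, while 4 were higher without AMuSC 3. Of the proteases that cut matrix, *Adam12*, which marks activated muscle progenitors and fibroblastic cells, was at 3.31, 4.96 and 3.67 CPM, against 57.1, 61.6 and 44.2 CPM (-3.77 ± 0.23, adjusted p = 0.000475). *Plat*, tissue plasminogen activator, fell by 3.73, and the inhibitor *Timp1* rose by 2.16. Of 33 integrin and adhesion genes 10 were higher and 5 lower, and 6 were higher without AMuSC 3 or without myoblast 1. *Itga3*, a laminin receptor chain, was at 248, 215 and 244 CPM, against 33.7, 58.7 and 60.2 CPM (2.21 ± 0.24, adjusted p = 0.00206), while *Itga7* was lower.

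**Figure D4:**
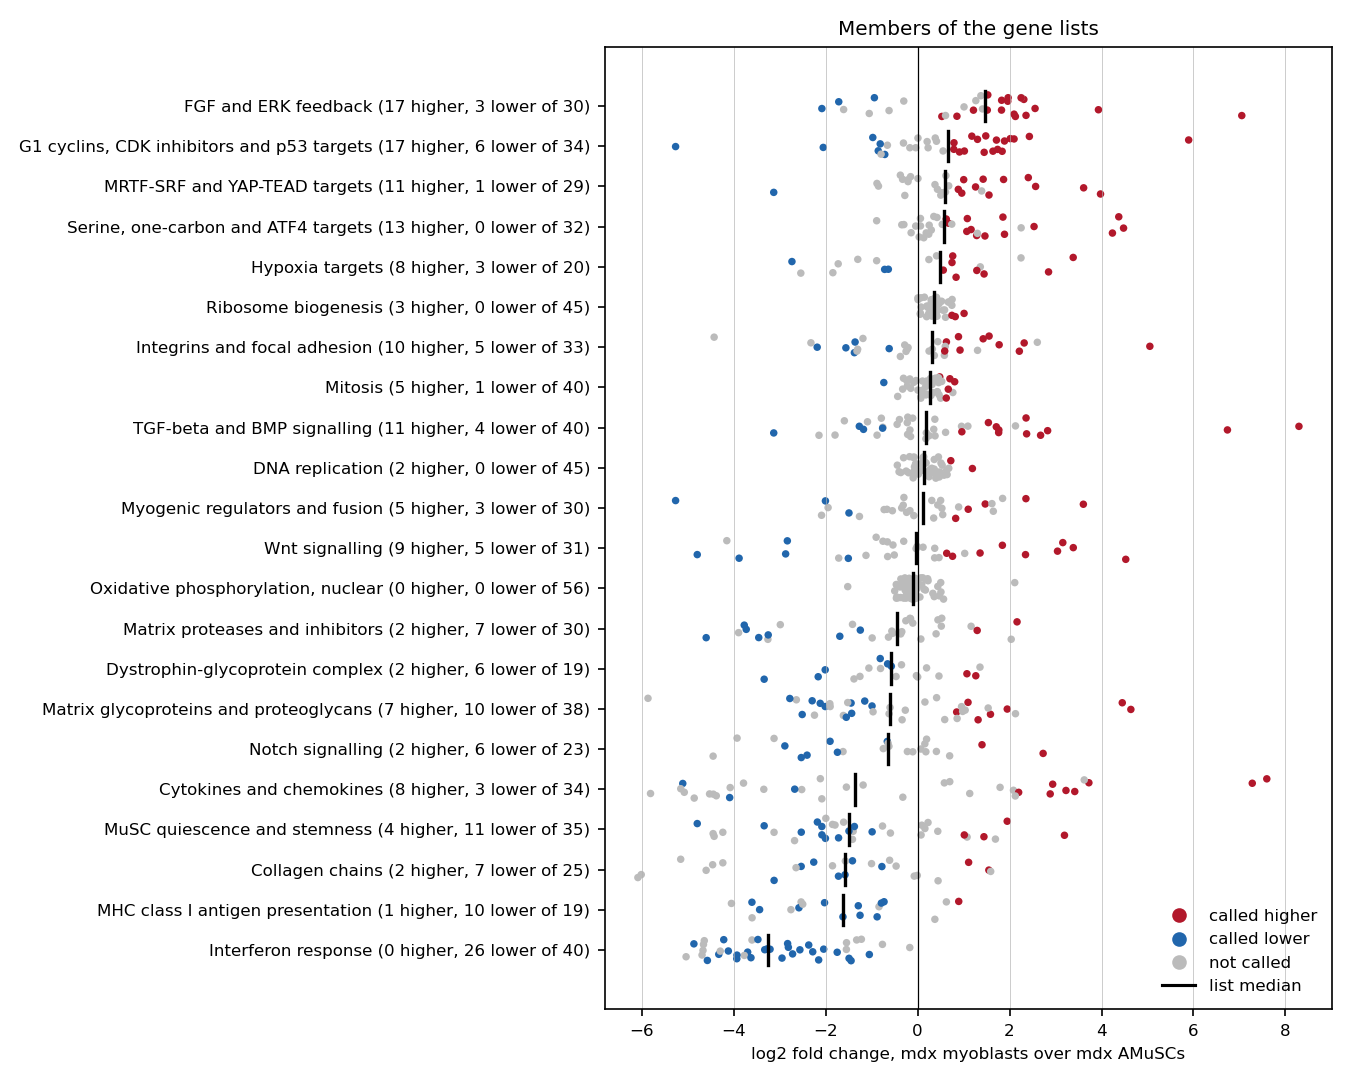
Log2 fold change, *mdx* myoblasts over *mdx* AMuSCs, of each tested member of 22 gene lists, ordered by list median (black bar), with called members in red (higher) or blue (lower). Among these lists FGF and ERK feedback genes have the highest median (1.46) and interferon response genes the lowest (-3.24), with 26 of 40 called lower and none higher.

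With all libraries, interferon response genes had the lowest median of the 35 pathway lists, but without myoblast 2 complement and acute phase genes were lower (-5.12, against -3.36 for interferon). The leukocyte marker lists were lower still with all libraries, at -4.23 for general leukocyte and -4.66 for macrophage markers. Interferons act through transcription factors that bind a promoter element with 2 GAAA repeats, and they induce antiviral proteins and antigen presentation. Of 40 tested genes, 26 were lower and none higher in *mdx* myoblasts, with a median of -3.24, and 23 were lower without myoblast 2. *Ddx58* (RIG-I), a sensor of viral RNA, was at 6.53, 8.73 and 7.99 CPM in *mdx* myoblasts, against 77.8, 46.5 and 40.6 CPM in *mdx* AMuSCs (-2.83 ± 0.28, adjusted p = 0.00172). *Ifih1* (MDA5), another sensor, was at 7.21, 5.37 and 6.21 CPM, against 61.7, 34.5 and 27.4 CPM (-2.72 ± 0.33, adjusted p = 0.00304). *Xaf1* fell by 3.62. These 3 genes were low in every myoblast library and kept their call under every alternative. *Gbp2*, a guanylate-binding protein gene, was at 0.966, 4.15 and 0.917 CPM, against 52, 46.5 and 22.9 CPM (-4.32 ± 0.77, adjusted p = 0.0158), and its log2 fold change was -5.40 without myoblast 2. This was a call lost without myoblast 1 (adjusted p = 0.0570) and without myoblast 3 (adjusted p = 0.0554).

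AMuSC 1, the library with the most leukocyte RNA, was the highest AMuSC library for 40 of the 40 interferon genes, and the part of leukocytes in the result was not tested. Without AMuSC 1, 20 of the list were still lower, and the log2 fold change of *Ifih1* was then -2.30 (adjusted p = 0.00256). The count was 12 without myoblast 1 and 10 without myoblast 3. Genes of MHC class I presentation were lower in 10 of 19 cases and higher in 1, with a median of -1.62. They were lower in 4 without AMuSC 1, 4 without AMuSC 2, 3 without myoblast 1 and 2 without myoblast 3. *Psmb8*, an immunoproteasome subunit, was at 0.948, 2.85 and 2.62 CPM, against 45, 21.5 and 11.5 CPM (-3.60 ± 0.67, adjusted p = 0.0158). Its log2 fold change was -2.95 without AMuSC 1, and its adjusted p was 0.0681 without myoblast 3. *B2m*, the light chain of all MHC class I molecules, was at 123, 150 and 158 CPM, against 464, 192 and 114 CPM, so that its groups overlapped.
The interferon-stimulated response element, searched as GAAA, any 2 bases and GAAA on either strand, lay in the promoters of 13 of the 19 lower interferon genes with a promoter sequence and of 19 of 30 members in all, against 3.89% of all tested genes. On the gene's own strand alone it was found in 4 of 19, against 1.93%. The list is partly known for this element, so its presence is a description of these genes. Stretches of 3 lower genes are shown as examples from the first genes of the list, with the element nearest the start in capitals, from RefSeq on GRCm38.p6. They lie 56 bases before the start of *Isg15*, a ubiquitin-like protein (chr4:156200865-156200894, minus strand), 49 before that of *Gbp2* (chr3:142620594-142620623, plus strand) and 114 before that of *Bst2*, the antiviral protein tetherin (chr8:71537577-71537606, minus strand):
Isg15: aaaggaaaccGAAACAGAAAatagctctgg
Gbp2: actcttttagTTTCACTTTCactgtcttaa
Bst2: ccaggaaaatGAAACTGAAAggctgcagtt
In the stretches of *Isg15* and *Bst2* a further match overlaps the one in capitals and begins in the lower-case bases. *Isg15* was at 3.58, 2.61 and 4.22 CPM, against 34, 19.3 and 7.97 CPM (-2.56 ± 0.53, adjusted p = 0.0196). This call was lost without myoblast 1 (adjusted p = 0.0755), myoblast 2 (adjusted p = 0.0537) or myoblast 3 (adjusted p = 0.0713). *Bst2* fell by 2.28, a call lost without myoblast 1 (adjusted p = 0.0639) and without myoblast 3 (adjusted p = 0.0681).

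Among secreted signals, the myeloid factors *Csf1* and *Cx3cl1* were higher in culture. Of 34 cytokine and chemokine genes 8 were higher and 3 lower, but without AMuSC 1 only 1 was lower, and without myoblast 1 or 3 none was. The median of the list was nevertheless below 0, at -1.37 with all libraries and -0.11 without AMuSC 1. *Csf1*, the growth factor of macrophages, was at 879, 817 and 928 CPM in *mdx* myoblasts, against 66.9, 112 and 102 CPM in *mdx* AMuSCs (3.23 ± 0.23, adjusted p = 0.000665). *Cx3cl1* (fractalkine) was at 155, 116 and 89.6 CPM, against 10.2, 11.8 and 11.7 CPM (3.42 ± 0.23, adjusted p = 0.000575). *Tnfsf11* (RANKL), which drives osteoclast formation, was at 136, 180 and 144 CPM, against 1.49, 1.12 and 0.374 CPM (7.28 ± 0.54, adjusted p = 0.00117). All 3 were high in each culture, and *Cxcl12* and *Lif* rose by 2.20 and 2.94. Stress genes linked to tissue dissociation were called in few cases, with 2 of 28 immediate early genes higher and 1 lower. Myoblast 2 again set this count, since without it 9 were lower and 1 higher. The single lower call was lost without AMuSC 3, myoblast 1 or myoblast 3, and 1 was higher without AMuSC 2, AMuSC 3 or myoblast 1. *Fos* was at 9.54, 659 and 41.3 CPM, against 1227, 458 and 531 CPM, so that myoblast 2 lay within the range of the AMuSCs.

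Glucocorticoid and circadian genes also turned on myoblast 2. With all libraries 3 of 27 were lower and 2 higher, a share near the 18.9% called of all genes. Without myoblast 2, 13 were lower and 2 higher. The lower count was 1 without AMuSC 3 or myoblast 1 and 0 without myoblast 3, and 1 was higher without any 1 AMuSC library or myoblast 3. *Nr3c1*, the glucocorticoid receptor, was at 23.5, 45.7 and 25.9 CPM in *mdx* myoblasts, against 117, 83.8 and 94.8 CPM in *mdx* AMuSCs (-1.64 ± 0.28, adjusted p = 0.0104), and its adjusted p was 0.0573 without myoblast 3. The clock gene *Per1* was at 16.9, 63.6 and 25.8 CPM, against 96.9, 78.6 and 109 CPM, and passed the test when myoblast 2 was left out (-2.14, adjusted p = 0.00314). *Errfi1*, a feedback inhibitor of the EGF receptor that is also on this list, was steady at 922, 857 and 865 CPM, against 218, 271 and 246 CPM (1.85 ± 0.15, adjusted p = 0.000998). Of 22 complement and acute phase genes 1 was higher and none lower, while 7 were lower without myoblast 2. The one higher was *Cd55*, a brake on complement at the cell surface, at 12.9, 8.92 and 20.4 CPM, against 3.20, 3.21 and 2.77 CPM (2.20 ± 0.35, adjusted p = 0.00733). Glycolysis divided, with *Pfkp*, a phosphofructokinase, at 24.2, 34.4 and 35.6 CPM, against 79.9, 101 and 107 CPM (-1.61 ± 0.20, adjusted p = 0.00308), opposite to *Hk2*.

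Notch receptors were lower in culture and a Notch ligand was higher. In the Notch pathway 6 of 23 genes were lower and 2 higher. The receptors *Notch1* and *Notch3* were lower, *Notch1* at 108, 103 and 61.6 CPM in *mdx* myoblasts, against 353, 295 and 370 CPM in *mdx* AMuSCs (-1.90 ± 0.24, adjusted p = 0.00328). *Notch3* was at 91.5, 271 and 126 CPM, against 1117, 858 and 846 CPM (-2.53 ± 0.42, adjusted p = 0.0101), and its adjusted p was 0.0542 without myoblast 3. The ligand *Jag2* was higher, at 168, 126 and 194 CPM, against 18.7, 24.1 and 30.6 CPM (2.73 ± 0.24, adjusted p = 0.00122). The lower Notch count was 8 without myoblast 2, 3 without AMuSC 1, 2 without AMuSC 3, 3 without myoblast 1 and 2 without myoblast 3. The RBPJ motif GTGGGAA was in none of the 5 lower Notch genes with a promoter sequence, against 7.34% of tested genes.

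Of 40 TGF-beta and BMP genes 11 were higher and 4 lower. Without AMuSC 3 6 were higher, and 7, 2 and 1 were lower without myoblast 2, 1 or 3. The BMP targets *Id1* and *Id3* rose by 2.67 and 1.76, and the activin antagonist *Fst* was at 26.7, 19.4 and 21.9 CPM in *mdx* myoblasts, against 3.95, 5.08 and 4.23 CPM in *mdx* AMuSCs (2.36 ± 0.21, adjusted p = 0.00132). All myoblast libraries were above all AMuSC libraries for these genes. In the Wnt pathway 9 of 31 genes were higher and 5 lower. Without AMuSC 3 5 were higher and 2 lower, and 3, 3 and 2 were lower without AMuSC 1, myoblast 1 or myoblast 3. *Wnt5a*, a ligand of non-canonical Wnt signalling, was at 59.3, 73.9 and 56.7 CPM, against 3.87, 2.63 and 1.74 CPM (4.53 ± 0.33, adjusted p = 0.000665), opposite to the receptor *Lgr5*. In the IGF axis 5 of 31 genes were higher (2 without AMuSC 3, 3 without myoblast 3) and 7 lower (4 without AMuSC 1 or myoblast 1), with *Igf2bp2*, an RNA-binding protein of MuSC activation, up by 1.85 and the imprinted gene *Peg10* down (-1.56 ± 0.15).

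The dystrophin-glycoprotein complex links dystrophin to the matrix and in MuSCs also anchors the polarity proteins of asymmetric division. Of its 19 tested genes 6 were lower and 2 higher in *mdx* myoblasts, with a median of -0.57. *Dag1*, dystroglycan, the laminin receptor of the complex, was at 153, 371 and 159 CPM, against 2258, 2715 and 1931 CPM in *mdx* AMuSCs (-3.34 ± 0.40, adjusted p = 0.00316). *Sntb1*, a syntrophin, was at 11.5, 17.8 and 10.3 CPM, against 47, 66.9 and 63.2 CPM (-2.16 ± 0.25, adjusted p = 0.00274). Both were low in every myoblast library and kept their call under every alternative. *Dmd* itself was at 2.49, 30.3 and 5.32 CPM, against 37, 17.3 and 25.2 CPM (-1.06 ± 0.95, adjusted p = 0.465), with myoblast 2 inside the AMuSC range, and its log2 fold change without myoblast 2 was -2.75 (adjusted p = 0.0121). Of 18 polarity genes 4 were higher and 3 lower. *Egfr*, whose signalling orients MuSC divisions, was at 69.2, 108 and 64.7 CPM, against 265, 257 and 270 CPM (-1.71 ± 0.21, adjusted p = 0.00320). *Pard6b* was low in both groups, at 2.65, 1.5 and 1.65 CPM, against 0.0982, 0.168 and 0.260 CPM (3.44 ± 0.59, adjusted p = 0.00998). The count of lower complex genes was 3 without myoblast 1 and 3 without myoblast 3, and that of higher ones was 1 without AMuSC 1 or AMuSC 3, 4 without AMuSC 2 and 0 without myoblast 3.

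The contrast of myoblasts over AMuSCs was then set against the same contrast in WT cells, in a fit of all 12 libraries that tests the difference of the 2 contrasts. Of 20564 genes, 1188 (5.78%) differed, 439 with a higher (2.13%) and 749 with a lower (3.64%) log2 fold change in *mdx*. The count was 923 without myoblast 2 and 2361 without *mdx* AMuSC 2, and it ranged from 425 to 607 without 1 of the 6 WT libraries. The balance of directions turned on 1 library, with 1274 positive and 1087 negative differences without *mdx* AMuSC 2. Without 1 WT library 83 to 147 were positive and 342 to 489 negative. Matrix genes were among those that differed, with 8 of 25 collagens and 12 of 38 matrix glycoproteins on the lower side and none on the higher side. The median of the collagens was -1.61 in *mdx* and -0.33 in WT, and leaving out any 1 of the 12 libraries left 8 or 9 collagens called. *Col5a1* was at 99.7, 151 and 137 CPM in *mdx* myoblasts, against 801, 886 and 588 CPM in *mdx* AMuSCs, and at 140, 128 and 121 CPM in WT myoblasts, against 162, 148 and 102 CPM in WT AMuSCs (difference -2.47 ± 0.29, adjusted p = 0.00157). The myoblasts of the 2 genotypes lay close together and the *mdx* AMuSCs alone were high. *Fbn1* had the same layout (difference -1.80 ± 0.16, adjusted p = 0.000358). *Fn1* (fibronectin) was higher in the myoblasts of both genotypes and less so in *mdx*, at 2729, 1661 and 1874 CPM against 1050, 869 and 645 CPM in *mdx*, and at 2809, 1804 and 2589 CPM against 102, 126 and 148 CPM in WT (difference -2.97 ± 0.35, adjusted p = 0.00157). In the 6 *mdx* libraries alone its call was lost without AMuSC 3 (adjusted p = 0.0626) or myoblast 1 (adjusted p = 0.0535).

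*Bgn* (biglycan) turned its direction between genotypes, with 85.3, 169 and 72.2 CPM in *mdx* myoblasts, against 579, 524 and 341 CPM in *mdx* AMuSCs, and 235, 244 and 145 CPM in WT myoblasts, against 70.8, 60.7 and 48.4 CPM in WT AMuSCs (difference -3.94 ± 0.49, adjusted p = 0.00283). In the 6 *mdx* libraries alone its call was lost without myoblast 1 (adjusted p = 0.0515). *Edil3*, a secreted integrin ligand, and *Piezo2*, a mechanosensitive channel, differed by -3.55 and -4.79. *Piezo2* was at 12.7, 6.09 and 3.85 CPM in *mdx* myoblasts, against 10.9, 10.4 and 10.8 CPM in *mdx* AMuSCs, and at 75.8, 67.7 and 62.3 CPM in WT myoblasts, against 4.78, 3.27 and 2.50 CPM in WT AMuSCs. The WT cultures alone were high. Of 40 TGF-beta and BMP genes 10 differed on the lower side. In the opposite direction, *Ptprf*, a receptor phosphatase, was at 43.9, 81.5 and 75.9 CPM in *mdx* myoblasts, against 17.8, 20.2 and 22.4 CPM in *mdx* AMuSCs, and at 5.53, 7.90 and 5.40 CPM in WT myoblasts, against 22.5, 19.4 and 22.5 CPM in WT AMuSCs (difference 3.51 ± 0.32, adjusted p = 0.000371). *Cd34*, a marker of quiescent MuSCs, was kept in *mdx* cultures at 23.9, 35.1 and 18.4 CPM, against 21.6, 22.8 and 30 CPM in *mdx* AMuSCs, and was at 2.75, 2.12 and 6.16 CPM in WT myoblasts, against 34.5, 25.5 and 35 CPM in WT AMuSCs (difference 3.16 ± 0.52, adjusted p = 0.00888).

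DNA replication genes differed on the higher side in 21 of 45 cases and on the lower side in none. Their median log2 fold change was 0.12 in *mdx* and -0.58 in WT. Their mean level on the log2 CPM scale was 5.91, 5.68 and 5.81 in *mdx* myoblasts, against 5.40, 5.78 and 5.72 in *mdx* AMuSCs, and 5.95, 5.95 and 5.95 in WT myoblasts, against 6.52, 6.38 and 6.55 in WT AMuSCs. The WT AMuSCs were thus the group that stood above the others. *Mcm5*, a helicase subunit of replication origins, was at 104, 95.3 and 99.0 CPM in *mdx* myoblasts, against 104, 140 and 130 CPM in *mdx* AMuSCs, and at 115, 117 and 104 CPM in WT myoblasts, against 257, 216 and 265 CPM in WT AMuSCs (difference 0.81 ± 0.17, adjusted p = 0.0208). Its call was lost without *mdx* myoblast 1, WT AMuSC 1 or 3, or any WT myoblast library, with adjusted p from 0.0543 to 0.0876. The number of replication genes that differed varied with the libraries, being 36 without *mdx* AMuSC 2, 15 without *mdx* AMuSC 1, 20 without *mdx* AMuSC 3, 9 without *mdx* myoblast 1, 15 without *mdx* myoblast 2 and 15 without *mdx* myoblast 3. It was 7, 13 and 6 without WT AMuSC 1, 2 or 3 and 6, 5 and 6 without WT myoblast 1, 2 or 3. The contrasts in *mdx* and WT share no library.

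**Figure D5:**
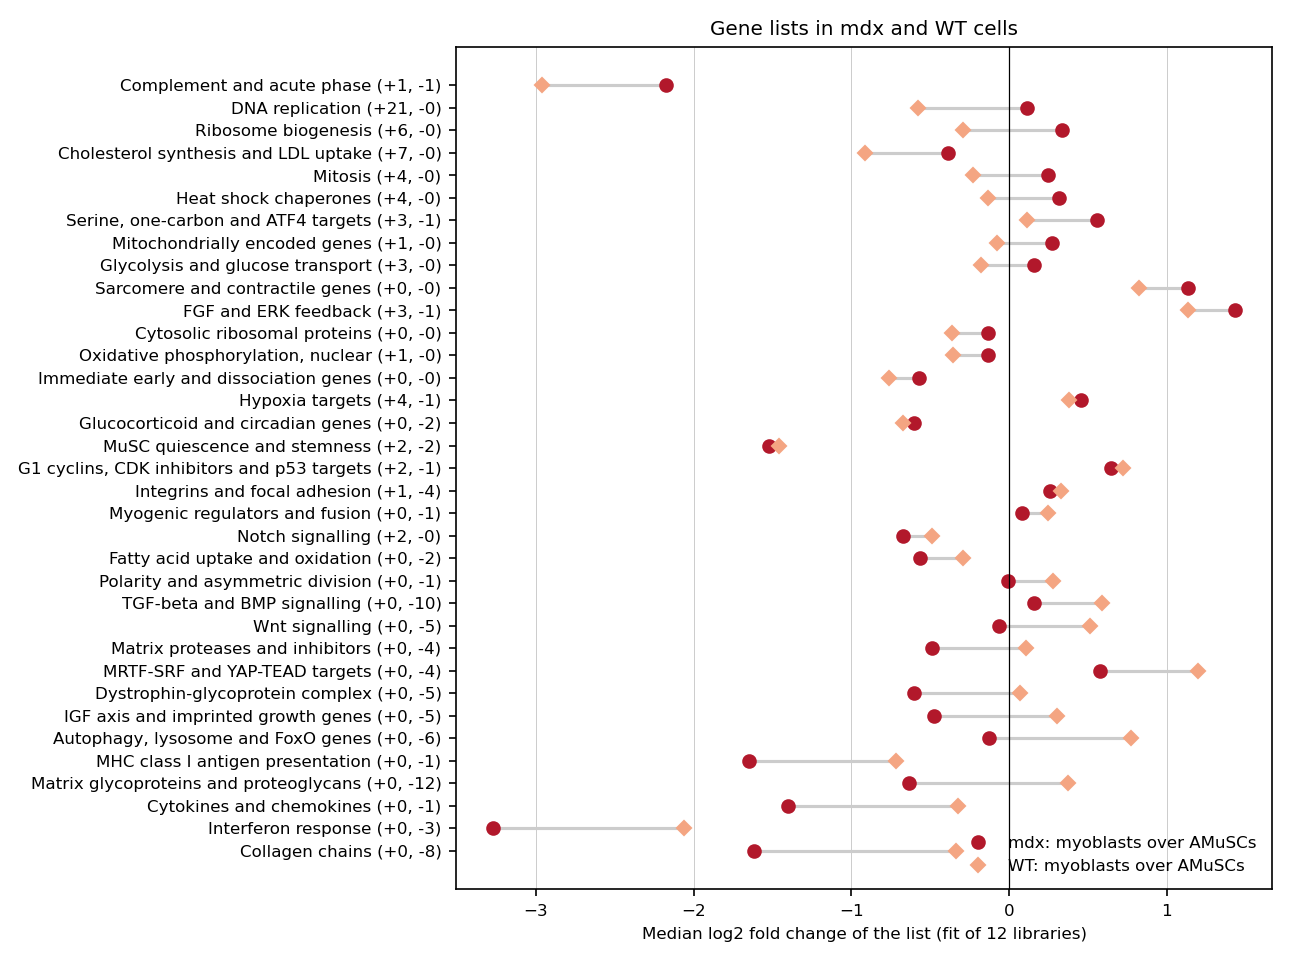
Median log2 fold change of myoblasts over AMuSCs in *mdx* (red circles) and WT (orange diamonds) for each of 35 gene lists in the fit of 12 libraries, ordered by the gap between the medians, with the numbers of members that differed in the higher (+) and lower (-) direction in *mdx*. Collagens have a median of -1.61 in *mdx* and -0.33 in WT, and DNA replication genes one of 0.12 in *mdx* and -0.58 in WT.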

How the data were processed

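RNA-seq libraries were prepared from polyA RNA with a directional kit. The authors deposited 1 table per library in the layout of Salmon, with an estimated count and a TPM value (abundance relative to all transcripts, corrected for length) for each transcript of GRCm38. The submitters' processing notes name Salmon 0.13.1 and DESeq2. The strand setting is not given in the sources used here. For each gene, the deposited estimated counts of its transcripts were added up and rounded, and the deposited TPM values were not used in any test. Library totals were 40167166 to 56882649 in *mdx* myoblasts and 48132945 to 56673199 in *mdx* AMuSCs, and CPM values were scaled by TMM.

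The 6 libraries were fitted alone with edgeR 4.0.16 in R 4.3.3 (filterByExpr, TMM, robust quasi-likelihood test). The p-values were adjusted over all genes tested (Benjamini-Hochberg). Fold changes used edgeR's default prior count. A prior count of 2 entered only the log2 CPM values behind the library positions and the replicate correlations. The difference from WT was a contrast of 4 group means in 12 libraries. An exact permutation test of 3 against 3 libraries cannot go below p = 0.1, so none was used. Alternatives were DESeq2 1.42.0 and its size factors, upper quartile scaling, other filters, a length offset, all 24 libraries, a replicate block and leaving out each library. Scripts were tested on simulated data. Promoters came from RefSeq for 11981 of 18589 tested genes.

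Named genes were the 15 largest changes in each direction among protein-coding genes called with and without myoblast 2 and without overlap, the first 6 genes and the 4 smallest p-values of each list, the 8 largest differences from WT in each direction, and genes that the study names. *Myo1d*, *Vcam1* and *Des* fall outside this rule and were picked with their values known. The members and lists were chosen with earlier results of these data known. The values of 1 listed gene are not reported here.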

Additional observations from a re-analysis of the deposited data

Results flagged for a closer look

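For 39 genes named here, the change between myoblasts and AMuSCs differed between *mdx* and WT by a test of that difference in the fit of 12 libraries (edgeR's quasi-likelihood test, adjusted p under 0.05). Values in parentheses are the log2 fold change in *mdx* minus that in WT. The difference was positive for 19 genes and negative for 20, and 5.78% of all genes tested differed. The genes were named for their change in *mdx*, as members of lists or for the size of this difference, so their number says nothing of how common such differences are.

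In 20 of the 39 genes the difference was called in every fit that left out 1 of the 12 libraries. Of all 39, 11 calls were lost with the replicate block, 9 in the fit of all 24 libraries, 6 with no filter on low counts, 1 with DESeq2 size factors and none with DESeq2. Among the 20 genes called in every fit without 1 library, the positive ones were *Itga3* (1.96), *Phlda1* (0.63), *Cd34* (3.16), *Ptprf* (3.51) and *Mtus1* (3.20). *Itga3* is a laminin receptor chain and *Phlda1* an ERK-induced gene. The negative ones were *Bgn* (-3.94), *Col12a1* (-1.88), *Col3a1* (-1.66), *Col5a1* (-2.47), *Fbn1* (-1.80), *Fn1* (-2.97), *Kif26b* (-3.78), *Lama2* (-1.51), *Nid1* (-1.54), *Pkp1* (-3.18), *Piezo2* (-4.79), *Edil3* (-3.55), *Ifi204* (-5.39), *Ifi211* (-5.11) and *Dio2* (-3.45). Most of these are matrix genes, with *Dio2*, which activates thyroid hormone, and *Ifi204* and *Ifi211*, interferon-inducible genes of a family of near copies whose reads may have been divided in either direction.

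In the other 19 the call was lost without at least 1 library, with adjusted p reaching at most 0.143. The positive ones were *Ccnd1* (1.19), *Dusp4* (0.86), *Egln3* (1.24), *Hk2* (1.00), *Jag2* (1.16), *Orc1* (1.23), *Rxfp1* (4.00), *Vegfa* (1.18), *Mcm5* (0.81), *Eno1b* (5.89), *Krt8* (3.70), *Hhip* (3.56), *Trim54* (3.29) and *Ccbe1* (3.05). Reads of *Eno1b* are shared with *Eno1*, and its level in *mdx* myoblasts varied widely, at 683, 118 and 20.3 CPM. The negative ones were *Acaa2* (-0.82), *Bst2* (-1.91), *Matn2* (-1.25), *Pax7* (-0.92) and *Lgals3bp* (-3.64).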

How the results depend on the processing

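Of 98 called log2 fold changes of genes described in this text, none turned round under any alternative in which the gene was tested. They lost 1 to 12 calls without any 1 library, 10 with the replicate block, 5 with no filter on low counts, 1 with an offset for transcript length and none with DESeq2, DESeq2 size factors, upper quartile scaling or a fit of all 24 libraries. None was lost among the 97 still tested with protein-coding genes only and the 92 still tested with a filter at 10 CPM. These counts cover the genes described here, not all genes that the naming rule chose. Of all 15 largest decreases, 5 were called without AMuSC 1 and 5 without AMuSC 3. Over all genes, leaving out 1 library gave 1751 to 4368 calls, with 1082 to 2736 higher and 535 to 1632 lower. DESeq2 called 5532 genes, 2598 of them lower, and the fit of all 24 libraries called 8129, with 4140 higher and 3989 lower. For the listed genes, 310 were called in the main analysis, 190 to 327 without 1 library, 468 by DESeq2 and 521 with all 24 libraries. For the difference from WT, leaving out 1 library gave 425 to 2361 calls, with 83 to 1274 positive and 342 to 1116 negative. DESeq2 gave 2840, with 1186 positive and 1654 negative, all 24 libraries 1921, of which 1309 negative, and no filter on low counts 232 positive. The mean position of the *mdx* AMuSCs was -0.271 with 500 genes, -0.136 with 2000 and 0.052 with all genes. On the gene's own strand the response element was in 4 of 19 lower interferon genes and 0 of 9 lower MHC class I genes with a promoter sequence. On either strand it was in 13 and 3 of them. The CCAAT box was in 2 of 5 higher mitosis genes on the own strand, against 24.8% of tested genes. On either strand it was in all 5, against 42.5% of tested genes. The cause of these movements was not tested.

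Myoblasts and AMuSCs with the same replicate number did not deviate together (correlations of -0.167, -0.206 and -0.140). Deviations from the mean of 3 libraries cannot show whether the same animals were used, since 1 outlying library can set them. The correlation of myoblast 2 with AMuSC 1 was 0.287. With the number as a block 1796 genes were called, 1098 higher and 698 lower. The block left 214 of the listed genes, and for the difference from WT 681 genes, 181 of them positive and 500 negative. In simulated data with 3 libraries a group and 200 genes changed, 0, 5.97 and 63.64% of genes changed 1.5, 2 and 4-fold were recovered in the *mdx* contrast. In the real data 3508 genes were called, which makes the adjustment of p-values milder. The simulated rates therefore do not give the power of the real contrast. An uncalled gene may still differ. Cell origin, injury, isolation and RNA kit cannot be told apart.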

Other observations

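2 further genes with clear levels in *mdx* myoblasts and few or no reads in *mdx* AMuSCs were chosen after their values were seen. *Foxc2*, a forkhead transcription factor of mesenchymal development, was at 51.6, 52.7 and 47.6 CPM in *mdx* myoblasts, against 0.334, 0.392 and 0.0163 CPM in *mdx* AMuSCs. *Gzmc*, a granzyme of the same cluster as *Gzmd*, was at 3.78, 6.04 and 11.7 CPM, against 0.0393, 0 and 0 CPM. *Twist2*, a mesenchymal transcription factor named among the fibro-adipogenic markers, was at 0.948, 2.16 and 5.03 CPM and had no read in any AMuSC library. All myoblast libraries were above all AMuSC libraries for these genes.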
